A study of Mus musculus with 10 samples.

Results

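Livers of mice with an autoimmune model of primary biliary cholangitis (PBC) were compared directly with livers of mice with a toxic-diet model of primary sclerosing cholangitis (PSC), by sequencing of liver RNA. The comparison took 6 of the 10 libraries of the series: PBC 7, 8 and 9 against PSC 11, 13 and 14, each from a separate mouse. A gene model entered when its normalised read number was at least 10 in at least 3 of these 6 libraries, which kept 17351 of 59408 models. All mice were wild-type C57BL/6, and all livers were taken at day 35. PBC mice had been injected intraperitoneally with 100 µg of 2-octynoic acid coupled to bovine serum albumin at days 0, 14 and 28, first in complete and then in incomplete Freund's adjuvant. They also received 2 µg of the glycolipid α-galactosylceramide intravenously with the first 2 injections. PSC mice ate a diet with 0.089% 3,5-diethoxycarbonyl-1,4-dihydrocollidine (DDC) for 2 weeks, regular food for 1 week and DDC again for 1 week. The 4 untreated mice received no antigen, adjuvant, glycolipid or DDC, so the effect of antigen cannot be told apart from that of adjuvant and glycolipid. The antigen regime and the diet differ in every component, and no group received both.

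In primary biliary cholangitis, an immune response to mitochondrial lipoyl proteins accompanies T cell attack on small bile ducts, and 2-octynoic acid is used in mice as a mimic of the lipoyl group. α-Galactosylceramide activates natural killer T cells. DDC injures the biliary epithelium, blocks heme synthesis and leads to porphyrin plugs in ducts, a proliferation of duct-like cells called the ductular reaction, and periductal scarring. Interferon gamma, made by T and NK cells, induces a set of GTPase, antigen presentation and chemokine genes.

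Values below are normalised reads, listed in the order PBC 7, 8 and 9, then PSC 11, 13 and 14, then untreated livers 1 to 4. Differences are on the scale of log2(normalised reads + 1), PBC minus PSC, so a positive value means higher in PBC. SE is the standard error, and adjusted p is from limma with Benjamini-Hochberg adjustment over all models tested. A difference is called at an adjusted p under 0.05. Recovered depth, in M (mega) reads, was 44.3 to 51.1 M in PBC and 55.3 to 95.4 M in PSC. Albumin was the most abundant model in 9 of the 10 libraries and transferrin (Trf) in PSC 11, a check of the labelled tissue. No library had a read in any of 4 Y-linked genes. The labels give neither sex nor age.

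The models were separated by the first principal component of the 1000 most variable genes, which held 45.4% of the variance over the 6 libraries. On it, PBC livers lay from -50.8 to -28.5 and PSC livers from 32.7 to 42.1. The second component held 22.7% and spread the PBC livers, with PBC 7 at 41.0 and PBC 9 at -49.1, while the PSC livers lay from -11.2 to 2.04. Limma called 418 models (2.41% of those tested). Of these, 205 (1.18%) were higher in PBC and 213 (1.23%) higher in PSC. Counts of called members in the gene lists below stand against these shares over all models. At least 2-fold differences made up 195 of the models higher in PBC and 206 of those higher in PSC, and at least 8-fold differences 49 and 47. In all 418 the PBC and PSC livers did not overlap, against 28.0% of all models tested. A total of 85 (0.490%), of which 49 were higher in PBC and 36 in PSC, were called also by edgeR and in each of 10 fits with 1 library left out. A called gene is among these 85 where no lost call is given for it, except that genes said to be named after their values were seen are not, unless stated. A model under 10 in every liver of one group could not be tested with 1 liver of the other group left out, and counts as not called there. With library totals set equal in place of the deposited scale, 133 models were higher in PBC and 247 in PSC, so the share higher in PBC was 35.0% in place of 49.0%.

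**Figure D1:**
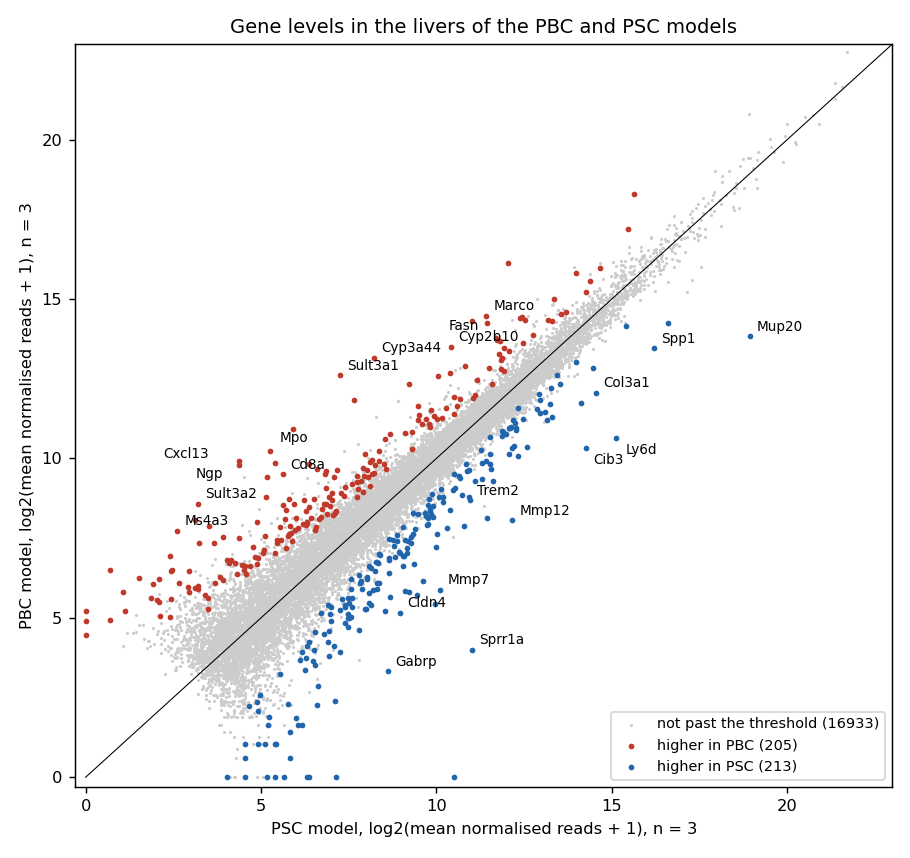
Mean level of each of 17351 gene models in the PSC livers (x axis) and the PBC livers (y axis), both as log2(mean normalised reads + 1) over 3 livers. Coloured points are the 205 models called higher in PBC and the 213 called higher in PSC, the line marks equal levels, and the named genes lie far from it.

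The untreated livers gave the position of each model. Among the 205 models higher in PBC, all PBC livers lay above all untreated livers in 128 (62.4%, against 13.5% of all models tested). PSC livers lay below all untreated livers in 87 of the 205 (42.4%, against 15.4%), and 18 models had both positions. For 25 of the 205, both models lay above the untreated livers, and the call itself places PBC further than PSC. Models higher in PSC were more uniform. PSC livers lay above all untreated livers in 186 of the 213 (87.3%, against 16.9%), while PBC livers lay below them in 35 (16.4%, against 6.76%). Both models lay above the untreated livers in 48 of the 213. For the joint positions (18, 25 and 48 models) the share over all models tested was not counted, so these numbers have no reference. These positions are descriptions over 3, 3 and 4 livers, and the same untreated livers serve both models. The called models were picked by the same PBC and PSC values. That choice by itself raises the shares with the higher model above, or the lower model below, the untreated livers.

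**Figure D2:**
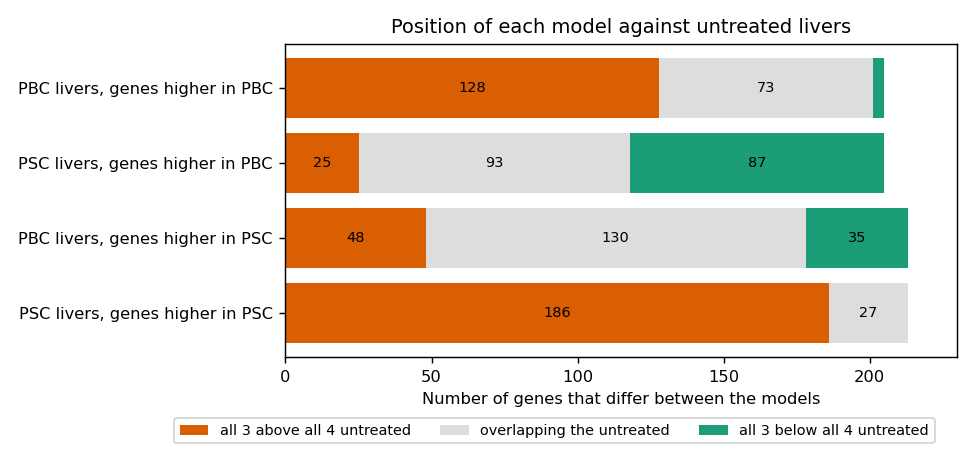
Number of called models by the position of all 3 livers of a model against the 4 untreated livers. Genes higher in PBC divide between PBC above (128) and PSC below (87) the untreated livers, while for genes higher in PSC the PSC livers lie above in 186 of 213.

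Many T cell genes were higher in PBC. Of 18 T cell genes tested, 9 were called, all higher in PBC, with a median difference of 1.71 against 0.02 over all models tested, and all 18 differences were positive. Cd8a (chr6:71373427-71379173, mm10), the alpha chain of the CD8 co-receptor of cytotoxic T cells, had 783, 827 and 559 in PBC, 65.7, 30.7 and 47.7 in PSC and 20.7, 39.8, 56.2 and 22.2 in the untreated livers. PBC livers were 15.1-fold higher than PSC livers by their means and above all untreated livers, whereas PSC livers overlapped the untreated ones. The difference was 3.93 (SE 0.42, adjusted p = 0.000505). Cd8b1 (chr6:71322787-71337492), the beta chain of the same receptor, had 224, 217 and 104 in PBC, 24.4, 17.8 and 16.4 in PSC and 16.8, 21.8, 15.3 and 15.3 untreated. Its pattern was that of Cd8a, with a difference of 3.09 (SE 0.43, adjusted p = 0.00289). Cd3g, which encodes the gamma subunit of the CD3 complex that signals for the T cell receptor, differed by 1.71 (SE 0.28, adjusted p = 0.00676), with 346, 333 and 345 in PBC and 93.8, 87.3 and 136 in PSC. Its partner Cd3e had 104, 109.9 and 99.5 in PBC, 15.9, 29.1 and 3.29 in PSC and 7.77 to 33.4 untreated, and differed by 3.02 (SE 0.69, adjusted p = 0.0378). The Cd3e call was lost without any 1 of PBC 7, 8 and 9 and PSC 11 and 14 (adjusted p from 0.0831 to 0.151), and its difference was 3.63 without PSC 13 and 2.22 without PSC 14. The other called members, named after their values were seen, were the surface receptors Cd5 and Cd6, Cd3d, the adaptor Lat and the T lineage factor Bcl11b, called in 5 to 8 of the 10 left-out fits. The count of 9 became 3 with PSC 14 left out, 4 with PSC 13 left out and 5 with PBC 7 left out. In RNA of whole liver, fewer cells of a type and less RNA per cell cannot be told apart.

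Cytotoxicity genes went the same way in part. Of 13 tested members, 3 were called, all higher in PBC, with a median of 1.17, and at least 3 were called with any 1 library left out. Gzmb (chr14:56258838-56262334), for the protease granzyme B that kills target cells, had 269, 479.6 and 313 in PBC, 94.7, 71.2 and 78.9 in PSC and 35, 41.1, 63.9 and 59.7 untreated. Both models lay above the untreated livers, and PBC was 4.34-fold above PSC, a difference of 2.07 (SE 0.34, adjusted p = 0.00699). Nkg7, a granule membrane gene, differed by 1.62 (SE 0.23, adjusted p = 0.00328). Ccl5, for a chemokine that T cells release, differed by 1.53 (SE 0.24, adjusted p = 0.00525). Of 10 tested checkpoint and regulatory T cell genes, limma and edgeR called 0 and DESeq2 1, and 3 had an unadjusted p under 0.05, with a median of 1.10. Among them Pdcd1 differed by 2.77 (SE 1.03, adjusted p = 0.172) and Foxp3 by 0.88 (SE 0.87, adjusted p = 0.593).

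Several B cell genes were higher in PBC. Of 11 tested B cell and plasma cell genes, 5 were called, all higher in PBC, with a median of 1.79. Cd79a (chr7:24897510-24902197), which encodes a signalling chain of the B cell receptor, had 455, 476 and 683 in PBC, 73.2, 154 and 115 in PSC and 168, 171, 243 and 255 untreated. All PBC livers lay above and all PSC livers below the untreated livers, and the difference was 2.27 (SE 0.32, adjusted p = 0.00309). Cd79b, Cd22 and the coactivator Pou2af1, named after their values were seen, were also called. The count of 5 became 2 with PBC 9, PSC 11, PSC 13 or PSC 14 left out and 3 with PBC 7 left out. The summed level of the 13 listed models did not separate the groups, at 34639 to 45732 in PBC, 37542 to 51834 in PSC and 30576 to 67812 in the untreated livers.

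The list with the highest median was that of granulocyte precursors. Of 12 tested, 8 were called, all higher in PBC, with a median of 4.08. Mpo (chr11:87793784-87804411), for myeloperoxidase of the primary granules, had 647, 610.2 and 2385 in PBC, 44.1, 29.1 and 39.4 in PSC and 0, 0, 0 and 5.55 untreated. PBC was 32.3-fold above PSC, and PSC in turn lay above the untreated livers. The difference was 4.69 (SE 0.75, adjusted p = 0.00628), or 4.05 without PBC 9. Ngp (chr9:110419808-110423010), for a granule protein, had 196, 698 and 1765 in PBC, 25.3, 12.9 and 21.4 in PSC and 5.18, 0, 2.55 and 2.78 untreated. PBC livers ranged widely but lay above all PSC livers, with a difference of 4.95 (SE 0.79, adjusted p = 0.00628), 5.78 without PBC 7 and 4.20 without PBC 9. Ms4a3 (chr19:11629493-11640852), a gene of granulocyte-monocyte progenitors, had 134, 161 and 339 in PBC, 3.75, 0 and 11.5 in PSC and 0, 2.57, 0 and 2.78 untreated. Its difference was 5.64 (SE 0.96, adjusted p = 0.00767), 4.66 without PSC 13 and 6.48 without PSC 14. Ltf, which encodes lactoferrin of the secondary granules, had 669, 1047 and 4099 in PBC and 67.5, 30.7 and 80.5 in PSC, a difference of 4.66 (SE 0.80, adjusted p = 0.0081). Without PSC 13 its adjusted p was 0.051, and without PBC 9 its difference was 3.90. The other called members were Ctsg, Elane, Camp and Fcnb, named after their values were seen and called in 2 to 7 of the 10 left-out fits. The count of 8 became 3 with PSC 13 left out, 4 with PBC 9 or PSC 14 left out and 5 with PSC 11 left out.

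Among 12 tested genes of mature neutrophils, with a median of 1.19, the only call was Ly6g. It differed by 3.91 (SE 0.82, adjusted p = 0.0247), and its call was lost in 5 of the 10 left-out fits (adjusted p up to 0.136 without PSC 14). S100a8, an alarmin subunit abundant in neutrophils, had 14083, 13052 and 35151 in PBC, 5655, 3120.0 and 4906 in PSC and 1095, 1271, 2251 and 111 untreated. The groups did not overlap, yet the difference of 2.07 (SE 0.81, adjusted p = 0.196) did not pass in the main fit. It passed in limma fits of only the 6 PBC and PSC libraries (adjusted p = 0.0203), with quality weights (0.0361) and without untreated liver 4 (0.0143). In the other alternative fits, edgeR (0.124) and DESeq2 (0.111) among them, it did not pass. The summed level of the list was 36229 to 102226 in PBC, 9666 to 17469 in PSC and 498 to 6923 in the untreated livers, with PBC 9 the highest. For the precursor list the sums were 24711 to 44362 in PBC, 20902 to 25646 in PSC and 3793 to 9799 in the untreated livers, so PBC and PSC overlapped. That sum includes Lyz2 and Chil3, which macrophages also express.

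Several genes induced by interferon gamma were higher in PBC. Of 17 tested interferon gamma genes, 7 were called, all higher in PBC, with a median of 1.27. Of 16 type I interferon genes, limma and edgeR called 0 and DESeq2 1, and 5 had an unadjusted p under 0.05, with a median of 0.19. The difference between these lists was not tested. Igtp, a GTPase that attacks vacuoles of intracellular pathogens, had 24532, 24442 and 17806 in PBC, 5376, 6274 and 5045 in PSC and 10013, 7319, 4146 and 6471 untreated. PBC livers lay above all others and PSC overlapped the untreated livers, a difference of 1.99 (SE 0.28, adjusted p = 0.00289). Gbp4, a guanylate-binding protein gene, had 569, 1239.5 and 370.3 in PBC, 115, 115 and 104 in PSC and 293, 189, 284 and 244 untreated. Its PBC livers lay above and its PSC livers below the untreated ones, with a difference of 2.51 (SE 0.37, adjusted p = 0.00369). Tgtp1, whose model is merged with Gm12185 in the deposited table and is therefore uncertain, differed by 2.71 (SE 0.40, adjusted p = 0.00406). Cxcl9, for a chemokine that attracts T cells, had 21707, 24217 and 13219 in PBC and 10719.8, 7958 and 13975 in PSC, and its difference of 0.85 (SE 0.32, adjusted p = 0.181) did not pass. The count of 7 became 4 with PBC 7, PBC 8, PSC 11, PSC 13 or PSC 14 left out, and 4 with equal totals.

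Promoters of the called GTPase genes held a shared motif, shown here because the members move together. RefSeq windows of GRCm38.p6 from 250 bases before to 50 after the gene start were matched by symbol for 10768 tested genes. The interferon-stimulated response element (ISRE) was searched on both strands as TTTC followed after any 2 bases by TTTC, and the interferon gamma activated site (GAS) as TTCNNNGAA. An ISRE match stood in 3.81% of all these genes, in 15 of 136 genes higher in PBC (11.0%) and in 6 of 137 higher in PSC (4.38%). GAS matches stood in 8.52%, 19.9% and 10.2% of these. All 6 called members of the Gbp and immunity-related GTPase families with a window held an ISRE, and 4 held a GAS. These families were picked after their values were seen, and their uncalled members were not examined as a set. Among 10 genes of the interferon gamma list with a window, called or not, 8 held an ISRE and 4 a GAS. The Igtp and Irgm2 stretches are nearly alike, so their matches are not separate observations. The 70-base stretches below are 5′ to 3′ on the gene's strand with the ISRE match in capitals, which begins with GAAA where the match lies on the opposite strand.
Igtp (chr11:58199492-58199561, plus strand): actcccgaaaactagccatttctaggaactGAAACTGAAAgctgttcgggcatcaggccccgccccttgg
Irgm2 (chr11:58214883-58214952, plus strand): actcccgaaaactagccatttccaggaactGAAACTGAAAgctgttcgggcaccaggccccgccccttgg
Tgtp2 (chr11:49064243-49064312, minus strand): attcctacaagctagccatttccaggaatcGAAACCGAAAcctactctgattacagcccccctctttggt
Gbp5 (chr3:142496739-142496808, plus strand): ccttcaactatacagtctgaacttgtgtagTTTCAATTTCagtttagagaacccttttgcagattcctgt
The matches began 34, 64, 70 and 165 bases before the respective gene starts. Tgtp2 differed by 2.24 (SE 0.30, adjusted p = 0.00247). Irgm2 differed by 1.27 (SE 0.29, adjusted p = 0.0353) and Gbp5 by 2.32 (SE 0.50, adjusted p = 0.0277). The calls of both were lost with some libraries left out (adjusted p up to 0.192 without PSC 14 for Irgm2 and up to 0.115 without PSC 13 for Gbp5). A match is a description of letters and does not show binding.

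Of 17 antigen presentation genes tested, 2 were called, both higher in PBC, against 1.18% of all models tested. All 17 had positive differences, with a median of 0.62. The 2 called were Tap1, for a peptide transporter (1.41 (SE 0.23, adjusted p = 0.00649)), and Nlrc5, an activator of class I genes (1.69 (SE 0.37, adjusted p = 0.0316)). Both were named after their values were seen, and the count became 0 with PSC 14 left out, 1 with PBC 7, PBC 8, PSC 11 or PSC 13 left out and 5 with untreated liver 3 left out. Cd74, for the class II invariant chain, had 25136, 34986 and 31302 in PBC, 15335, 16368 and 16789 in PSC and 5486, 3807, 4516 and 6857 untreated. The 3 groups did not overlap, but the difference of 0.90 (SE 0.23, adjusted p = 0.0566) did not pass.

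Kupffer cell and chemokine genes differed in single members. Marco (chr1:120474538-120505024), a scavenger receptor gene of resident macrophages, had 13359, 39046 and 15823 in PBC, 4491, 1448 and 2232 in PSC and 874, 609.7, 519 and 1751 untreated. PBC livers were 8.35-fold above PSC livers, which overlapped the untreated ones, with a difference of 3.05 (SE 0.51, adjusted p = 0.00699). Of 12 tested Kupffer genes, Marco and Timd4 were called (Timd4, for a receptor of dying cells, 1.93 (SE 0.36, adjusted p = 0.0143), called in 8 of the 10 left-out fits), with a median of 0.71 and 12 positive differences. The count of 2 became 1 with PSC 13 or PSC 14 left out. Clec4f, a lectin gene that marks Kupffer cells, differed by 0.39 (SE 0.23, adjusted p = 0.362). Cxcl13 (chr5:95956924-95961068), for the chemokine that draws B cells into follicles, had 234, 2466 and 178 in PBC, 26.3, 11.3 and 21.4 in PSC and 117, 74.5, 89.4 and 132 untreated. PBC 8 was far above the other PBC livers, all PBC livers lay above the untreated ones, and all PSC livers lay below them. Its difference was 4.58 (SE 0.75, adjusted p = 0.00678), 3.39 without PBC 8 and 5.28 without PBC 9. Ccl8, for a monocyte chemokine, differed by 2.99 (SE 0.68, adjusted p = 0.0378), but its call was lost without any 1 of the 6 PBC and PSC livers (adjusted p from 0.0634 to 0.136). On the other side Ccl20, which attracts cells bearing CCR6, and Cxcl14 were called higher in PSC, both named after their values were seen. Ccl20 had 0, 1.59 and 0 in PBC, 49.7, 45.3 and 72.3 in PSC and 5.18, 2.57, 0 and 0 untreated. Among 21 chemokine genes these 4 were called, with a median of -0.49, and the 2 higher in PSC became 0 with PSC 11, PSC 13 or PSC 14 left out and 1 with PBC 9 left out.

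**Figure D3:**
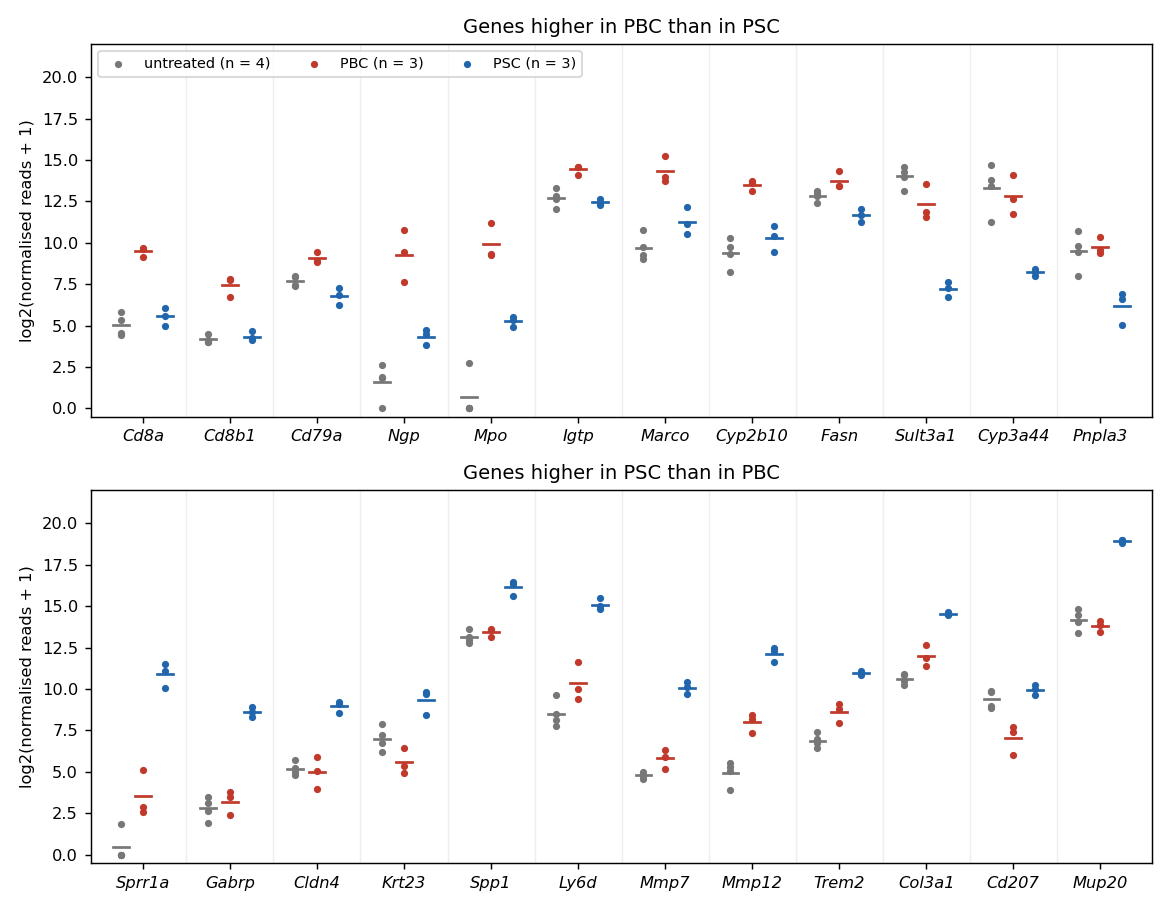
Level of 24 genes in each liver as log2(normalised reads + 1), with untreated (grey, n = 4), PBC (red, n = 3) and PSC (blue, n = 3) livers as points and the group mean as a bar. Cd8a and Marco stand out in PBC, Sult3a1 and Cyp3a44 are low in PSC against both other groups, and Sprr1a, Mmp7 and Mup20 stand out in PSC.

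Some drug-metabolising hepatocyte genes were higher in PBC, some with PBC above the untreated livers and others with PSC below them. Of 25 tested xenobiotic cytochromes P450, 7 were called, all higher in PBC, with a median of 0.76, and the count became 3 with PSC 13 or PSC 14 left out. Cyp2b10 (chr7:25897658-25926624), the classical target gene of the nuclear receptor CAR, had 8928, 13539 and 12516 in PBC, 2042, 684 and 1351 in PSC and 848, 306, 636 and 1265 untreated. All PBC livers lay above the untreated livers, while the PSC livers overlapped them, with PSC 11 above. The difference was 3.21 (SE 0.46, adjusted p = 0.00328). Cyp2c29, whose model is merged with the pseudogene Cyp2c53-ps, differed by 1.74 (SE 0.24, adjusted p = 0.00274), with PBC above the untreated livers and PSC overlapping them. Cyp3a44 (chr5:145773983-145805874) had 17649, 3429 and 6280.3 in PBC, 295, 256 and 343 in PSC and 13985, 26703, 2470.2 and 10946 untreated. Here PBC overlapped the untreated livers and PSC lay below all of them, with a difference of 4.61 (SE 0.70, adjusted p = 0.00462), or 3.97 without PBC 7. The other 4 calls, named after their values were seen, were Cyp1a2, Cyp2b9, Cyp2c37 and Cyp2c50, and each was lost in 2 to 8 of the 10 left-out fits. Cyp3a44 also belongs to the list of female-biased liver genes.

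Sulfotransferases, enzymes that attach sulfate to steroids, bile acids and drugs, gave some of the largest differences. Sult3a1 (chr10:33857722-33879475) had 11961, 3070.2 and 3661 in PBC, 105, 154 and 199 in PSC and 24834, 19743, 16259 and 9049 untreated. PSC livers lay below all others, by 40.9-fold against PBC, and PBC overlapped the untreated livers. The difference was 5.11 (SE 0.47, adjusted p = 0.000217), or 4.50 without PBC 7. Its neighbour Sult3a2 (chr10:33766424-33782115) had 744, 105 and 292 in PBC, 15, 9.7 and 0 in PSC and 922, 886, 406 and 540.1 untreated. Sult3a2 differed by 5.68 (SE 0.89, adjusted p = 0.00522), with 4.99 without PBC 7, 6.39 without PBC 8, 6.45 without PSC 11 and 4.44 without PSC 14. Sult5a1 had 1825, 228 and 698 in PBC, 45, 38.8 and 39.4 in PSC and 225 to 535 untreated, and differed by 3.98 (SE 0.57, adjusted p = 0.00328), 3.25 without PBC 7 and 4.75 without PBC 8. Of 18 tested Sult genes, a family picked after its values were seen, 4 were called, all higher in PBC. The fourth, Sult2a1, differed by 3.17 (SE 0.66, adjusted p = 0.025) and was called in 5 of the 10 left-out fits.

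Sex-biased liver genes moved unevenly. Of 14 tested female-biased genes, 5 were called, all higher in PBC, with a median of 1.16, and the count became 2 with PBC 7, PSC 11, PSC 13 or PSC 14 left out and 3 with PBC 9 left out. Their summed level was 105562 to 144969 in PBC, 34339 to 43394 in PSC and 127271 to 461820.1 in the untreated livers. Among 14 tested male-biased genes, Serpina1e and Elovl3, named after their values were seen, were called higher in PBC and Mup20 higher in PSC, and the 2 became 0 with PBC 7, PSC 11, PSC 13 or PSC 14 left out and 1 with PBC 9 left out. Mup20 (chr4:62050237-62054143), for darcin, a major urinary protein that male mice use as a scent signal, had 14851, 11162 and 17669 in PBC, 525359, 457218 and 515433 in PSC and 16556, 22177, 28738 and 10753 untreated. PSC livers were 34.3-fold above PBC livers, which overlapped the untreated ones. Its difference was -5.12 (SE 0.31, adjusted p = 3.79e-06). Mup genes are near copies of each other, so reads may be shared between them.

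Some lipid synthesis genes were higher in PBC. Fasn (chr11:120805958-120824547), for fatty acid synthase, had 20409, 11013 and 10995 in PBC, 4217, 2428 and 3334 in PSC and 5382, 9006, 8054 and 7315 untreated. PBC livers lay above and PSC livers below all untreated livers, a difference of 2.06 (SE 0.29, adjusted p = 0.00294). Pnpla3, for a lipid droplet hydrolase induced with lipogenesis, had 1298, 671 and 747 in PBC, 94.7, 32.4 and 118 in PSC and 251, 910.1, 1643 and 691 untreated, and differed by 3.58 (SE 0.60, adjusted p = 0.00717). Its PSC livers lay below all untreated livers, and its PBC livers overlapped them. Of 18 tested fatty acid and triglyceride synthesis genes, 3 were called higher in PBC (Fasn, Pnpla3 and Acly, the last named after its values were seen). Cidec, for a lipid droplet protein, was called higher in PSC at -2.83 (SE 0.62, adjusted p = 0.0311). The Cidec call did not hold in the fits lacking PBC 7, PBC 8, PSC 13 or PSC 14, where adjusted p was 0.0541 to 0.188. The difference was -2.17 without PBC 8. The count of 3 higher in PBC became 2 with PBC 7, PSC 13 or PSC 14 left out and 5 with untreated liver 4 left out. In cholesterol synthesis all 21 tested genes had positive differences, with a median of 0.76. Sc5d, for a late enzyme of the pathway, was among the 2 called and was named after its values were seen. This count of 2 became 0 with PBC 7, PBC 9, PSC 11, PSC 13, PSC 14 or untreated liver 1 left out and 1 with PBC 8 or untreated liver 2 left out. G6pdx, for the enzyme that supplies NADPH from glucose, differed by 1.55 (SE 0.25, adjusted p = 0.00678). Abcg8, for a subunit of the transporter that exports sterols into bile, differed by 1.34 (SE 0.22, adjusted p = 0.00676), with PBC above and PSC below the untreated livers.

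Other genes with large differences towards PBC had no list in common. Dmkn, for dermokine of stratified epithelia, had 326, 218 and 165 in PBC, 8.44, 9.7 and 13.2 in PSC and 0 to 5.11 untreated, a difference of 4.34 (SE 0.67, adjusted p = 0.0051). Msmp, for a microseminoprotein, had 104, 115 and 271 in PBC, 5.63, 16.2 and 3.29 in PSC and 338, 272, 588 and 618 untreated. Both models lay below the untreated livers, PSC further, with a difference of 4.24 (SE 0.54, adjusted p = 0.00182).

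Several bile duct epithelial genes were higher in PSC. Of 22 tested cholangiocyte genes, 7 were called, all higher in PSC, with a median of -1.49, and the count became 4 with PSC 14 left out. The summed level of the list was 19178 to 25384 in PBC, 67733 to 108565 in PSC and 16150.5 to 24000.3 in the untreated livers. Cldn4 (chr5:134945118-134946935), for a tight junction claudin, had 32.3, 57.4 and 14.8 in PBC, 379, 586 and 537 in PSC and 27.2, 35.9, 51.1 and 30.5 untreated. PSC was 14.4-fold above PBC, which overlapped the untreated livers, with a difference of -3.98 (SE 0.45, adjusted p = 0.000739). Krt23 (chr11:99477974-99493138), a keratin gene, had 39.8, 84.4 and 29.6 in PBC, 343, 825 and 902 in PSC and 104, 73.2, 232 and 151 untreated, a difference of -3.74 (SE 0.50, adjusted p = 0.00235). Spp1, for osteopontin, had 8905, 12220.2 and 12501 in PBC, 91721, 50963 and 83597 in PSC and 7014, 9079, 7883 and 12348 untreated. All PSC livers lay above the untreated livers, which PBC overlapped, with a difference of -2.72 (SE 0.27, adjusted p = 0.000322). Spp1 is also a macrophage gene and was on both lists. It made up most of the summed PSC level of the cholangiocyte list, so that sum mainly follows this gene. Spp1 gave 91721 of 108565 in PSC 11, 50963 of 67733 in PSC 13 and 83597 of 100641 in PSC 14. Cldn7 differed by -2.39 (SE 0.36, adjusted p = 0.0045) and Cldn6, from the list of keratins and tight junctions, by -2.71 (SE 0.36, adjusted p = 0.00235). Epcam, an epithelial adhesion gene, had 67.1, 156 and 139.7 in PBC and 368, 586 and 639 in PSC and differed by -2.17 (SE 0.38, adjusted p = 0.00931), with adjusted p 0.0577 without PSC 13 and 0.0696 without PSC 14. Cd24a and Elf3, named after their values were seen, complete the 7. The duct keratin Krt19 had 440.2, 484 and 294 in PBC, 552, 977 and 896 in PSC and 234, 100.1, 225 and 205 untreated, and its difference of -0.98 (SE 0.35, adjusted p = 0.161) did not pass. Sox9, a transcription factor of duct and progenitor cells, had 445, 371 and 451 in PBC and 1706, 717 and 735 in PSC. Its difference of -1.20 (SE 0.32, adjusted p = 0.0687) did not pass in the main fit. It passed by edgeR (adjusted p = 0.0456) and DESeq2 (0.00327), and in no other alternative fit.

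Several genes of stressed and transformed epithelium were higher in PSC. Sprr1a (chr3:92483955-92485895), for a cornified envelope protein of squamous epithelium, had 4.97, 6.37 and 33.9 in PBC, 2171, 1076 and 2955 in PSC and 2.59, 0, 0 and 0 untreated. PSC was 137-fold above PBC, and PBC lay above the untreated livers, most of which had 0. The difference was -7.37 (SE 0.75, adjusted p = 0.000322), or -8.17 without PBC 9. Gabrp (chr11:33550781-33578961), for a subunit of the GABA-A receptor found in epithelia, had 9.95, 12.8 and 4.23 in PBC, 396, 472 and 312 in PSC and 5.18, 7.7, 10.2 and 2.78 untreated, a difference of -5.40 (SE 0.55, adjusted p = 0.000322). Ly6d (chr15:74762056-74763567), a surface protein gene of injured or senescent hepatocytes, had 1022, 666 and 3132 in PBC, 33058, 28711 and 45254 in PSC and 360.1, 216, 792 and 282 untreated. Its difference was -4.76 (SE 0.52, adjusted p = 0.000505), or -5.41 without PBC 9. Spink1, a trypsin inhibitor gene of pancreas and stressed epithelia, had 39.8, 52.6 and 33.9 in PBC, 1657, 556 and 797 in PSC and 20.7, 11.6, 10.2 and 2.78 untreated, a difference of -4.41 (SE 0.58, adjusted p = 0.00235). Of 10 pancreatic acinar genes, 8 were too low to test and 6 were at 0 in all PSC livers, with a summed level of 559 to 1370.2 in PBC, 999.9 to 1252 in PSC and 815 to 2657 in the untreated livers. Tspan8, a tetraspanin gene, differed by -2.96 (SE 0.32, adjusted p = 0.000505) and Anxa2, an annexin gene, by -1.53 (SE 0.24, adjusted p = 0.00513). Of 15 tested fetal and tumour-associated liver genes, 6 were called, all higher in PSC, with a median of -1.21. That count became 3 with PBC 7, PSC 13 or PSC 14 left out. Cib3, for a calcium- and integrin-binding protein, had 1527, 879 and 1424 in PBC, 13313, 22489 and 23382 in PSC and 451, 329, 1911 and 530.4 untreated, a difference of -3.94 (SE 0.50, adjusted p = 0.00197). Phlda3, a p53 target gene, had 343, 354 and 305 in PBC and 1229, 1433 and 1357 in PSC, a difference of -2.00 (SE 0.26, adjusted p = 0.00235). It was the only called member of 17 tested p53 target and senescence genes. Cdkn1a, for the cell cycle inhibitor p21, had 6048, 4810 and 8864 in PBC, 9253, 7896 and 11750 in PSC and 4032, 10016, 2654 and 205 untreated. It differed by -0.58 (SE 0.96, adjusted p = 0.769), and this SE includes the wide spread of the untreated livers. With only the 6 PBC and PSC libraries in limma its adjusted p was 0.22.

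Duoxa2 and the Wnt genes were picked after their values were seen. Duoxa2, for the maturation factor of the peroxide-making enzyme DUOX2, had 0 reads in all PBC and untreated livers and 99.4, 29.1 and 117 in PSC. PSC was at least 39.6-fold above the level of 3 reads over the 3 PBC livers. In every library, models with 2 recovered reads outnumbered those with 1, so both mates of a pair may have been counted, and the level of 3 pairs gives at least 19.8-fold. Wnt7a, for a secreted Wnt ligand, had 46.9, 55 and 46 in PSC and 0 in all PBC livers, at least 23.9-fold against 3 reads and 11.9-fold against 3 pairs. Its relative Wnt7b had 19.9, 14.3 and 4.23 in PBC and 101, 139 and 127 in PSC, a difference of -3.36 (SE 0.54, adjusted p = 0.00635), called in 9 of the 10 left-out fits (adjusted p = 0.0502 without PSC 14). Of 6 tested Wnt genes, 3 were called, all higher in PSC.

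Calls among genes of recruited macrophages were mostly higher in PSC. Of 15 tested monocyte and recruited macrophage genes, 5 were called higher in PSC and 1 higher in PBC, with a median of -0.69. Trem2 (chr17:48346395-48354147), for a lipid receptor of scar-associated macrophages, had 545, 250.1 and 434 in PBC, 2038, 1800.2 and 2154 in PSC and 105, 86, 171 and 124 untreated. Both models lay above the untreated livers, PSC further, with a difference of -2.35 (SE 0.32, adjusted p = 0.00235). Gpnmb, a lysosomal glycoprotein gene of such macrophages, had 274, 351 and 220.1 in PBC, 3984, 1962 and 2352 in PSC and 2.59, 2.57, 0 and 9.72 untreated. It differed by -3.25 (SE 0.64, adjusted p = 0.0184), but the call was lost without PBC 7, PBC 9 or any 1 PSC liver (adjusted p from 0.0577 to 0.0878). Cx3cr1, a chemokine receptor gene, and Cd9, a tetraspanin gene, were also called higher in PSC and were named after their values were seen. Ly6c2, which marks inflammatory monocytes, had 194, 394 and 396 in PBC and 73.2, 80.9 and 75.6 in PSC. Its difference of 2.01 (SE 0.45, adjusted p = 0.0344) was lost without PBC 8, PBC 9 or any 1 PSC liver (adjusted p from 0.0953 to 0.143). The count of 5 became 2 with PBC 7, PSC 11, PSC 13 or PSC 14 left out.

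Langerin separated the models through a low level in PBC. Cd207 (chr6:83671207-83677857), which encodes this lectin of dendritic cells, had 172, 209 and 63.5 in PBC, 795, 1194 and 1027 in PSC and 902, 501, 938 and 457 untreated. PBC livers lay below all untreated livers and PSC livers overlapped them, a difference of -2.90 (SE 0.42, adjusted p = 0.00328). Cd209a, another dendritic cell lectin gene, named after its values were seen, had 0, 6.37 and 0 in PBC, 34.7, 74.4 and 88.7 in PSC and 16.8, 6.42, 17.9 and 22.2 untreated. It was called in the 7 left-out fits that tested it. These were the calls among 11 tested dendritic cell genes, with a median of 0.12.

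Several matrix genes were higher in PSC. Of 32 tested matrix and stellate cell genes, 11 were called, all higher in PSC, with a median of -0.82. Col3a1 (chr1:45311538-45349852), a fibrillar collagen gene, had 6468, 3692 and 2713 in PBC, 23139, 26193 and 22820.0 in PSC and 1803, 1228, 1913 and 1459 untreated. The 3 groups did not overlap, PSC was 5.61-fold above PBC, and the difference was -2.58 (SE 0.28, adjusted p = 0.000505). Col6a3, for a microfibrillar collagen, had 935, 441 and 489 in PBC, 2897, 3495 and 3040.3 in PSC and 346, 294, 393 and 259.6 untreated, a difference of -2.42 (SE 0.28, adjusted p = 0.000808). Col1a2, a type I collagen gene, differed by -1.99 (SE 0.27, adjusted p = 0.00235). For Col5a2 the difference was -1.61 (SE 0.26, adjusted p = 0.00587). Col1a1, the main chain of type I collagen, had 1919.8, 668 and 649.6 in PBC, 4793, 4542 and 6053 in PSC and 279.8, 105, 86.8 and 125 untreated. It differed by -2.43 (SE 0.45, adjusted p = 0.0126), with adjusted p 0.0748 without PSC 14. Timp1, for an inhibitor of matrix proteases, differed by -1.86 (SE 0.42, adjusted p = 0.0378), and its call was lost without any 1 of the 6 PBC and PSC livers (adjusted p from 0.0641 to 0.22). Acta2, the smooth muscle actin gene of myofibroblasts, did not pass at -1.25 (SE 0.39, adjusted p = 0.117). Neither did Tagln, for a contractile protein, at -1.53 (SE 0.43, adjusted p = 0.0851). The count of 11 became 5 with PSC 14 left out, 6 with PSC 13 left out and 7 with PSC 11 left out.

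Matrix proteases were called in the same direction. Mmp7 (chr9:7692086-7699585), for matrilysin of duct epithelium, had 79.6, 35 and 59.2 in PBC, 825, 1134 and 1348 in PSC and 27.2, 23.1, 25.6 and 30.5 untreated. Both models lay above the untreated livers, and PSC was 19-fold above PBC, a difference of -4.27 (SE 0.35, adjusted p = 8.25e-05). Mmp12 (chr9:7344396-7369499), for macrophage elastase, had 296, 344 and 163 in PBC, 5666, 3160.4 and 4953 in PSC and 32.4, 14.1, 38.3 and 45.8 untreated, with the same order and a difference of -4.12 (SE 0.42, adjusted p = 0.000322). Mmp13, a collagenase gene named after its values were seen, had 4.97, 9.56 and 4.23 in PBC, 97.5, 82.5 and 113 in PSC and 22, 8.99, 7.66 and 16.7 untreated. Its difference was -3.83 (SE 0.55, adjusted p = 0.00328), and it was called in the 7 left-out fits that tested it. Mmp2, for a gelatinase, named after its values were seen and called in 5 of the 10 left-out fits, was the other call among 18 tested matrix proteases, with a median of -0.48. The count of 4 became 2 with PSC 11, PSC 13 or PSC 14 left out.

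The AP-1 motif, searched as TGANTCA on both strands and added after values were seen, stood in a window of 6.86% of the 10768 genes. It was in 21 of 137 genes higher in PSC (15.3%) and 13 of 136 higher in PBC (9.56%), and in 5 of 12 genes of the matrix protease list. It was also in 4 of 10 genes of the interferon gamma list and in 2 of the 6 called GTPase genes, which were higher in PBC. The stretches below are shown for the proteases and Sprr1a, with AP-1 matches in capitals.
Sprr1a (chr3:92485988-92486057, minus strand): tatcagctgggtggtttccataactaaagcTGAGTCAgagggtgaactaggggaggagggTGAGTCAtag
Mmp7 (chr9:7691997-7692066, plus strand): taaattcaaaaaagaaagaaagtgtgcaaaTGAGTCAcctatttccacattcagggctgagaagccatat
Mmp12 (chr9:7347300-7347369, plus strand): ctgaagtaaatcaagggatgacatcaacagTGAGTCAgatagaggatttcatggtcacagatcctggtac
Mmp13 (chr9:7272449-7272518, plus strand): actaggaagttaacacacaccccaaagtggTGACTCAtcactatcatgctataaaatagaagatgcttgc
Sprr1a held 2 matches, and the first match of each lay 146, 63, 44 and 35 bases before the respective start. Mmp7 and Mmp12 each had another listed start whose window held no match. For Mmp12 the window without a match (chr9:7344147-7344446) is the one at the start of the tested model. The Mmp12 stretch shown comes from a listed start inside that model. Fosl1, for an AP-1 subunit, was the only call among 21 tested immediate early genes, whose median was 0.66. It was named after its values were seen and had 0, 3.19 and 0 in PBC, 36.6, 22.6 and 67.4 in PSC and 0, 0, 0 and 0 untreated. It was called in 5 of the 7 left-out fits that tested it. Fos, Fosb and Egr1, also named after their values were seen, had positive differences of 2.06, 2.30 and 2.20 that did not pass.

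**Figure D4:**
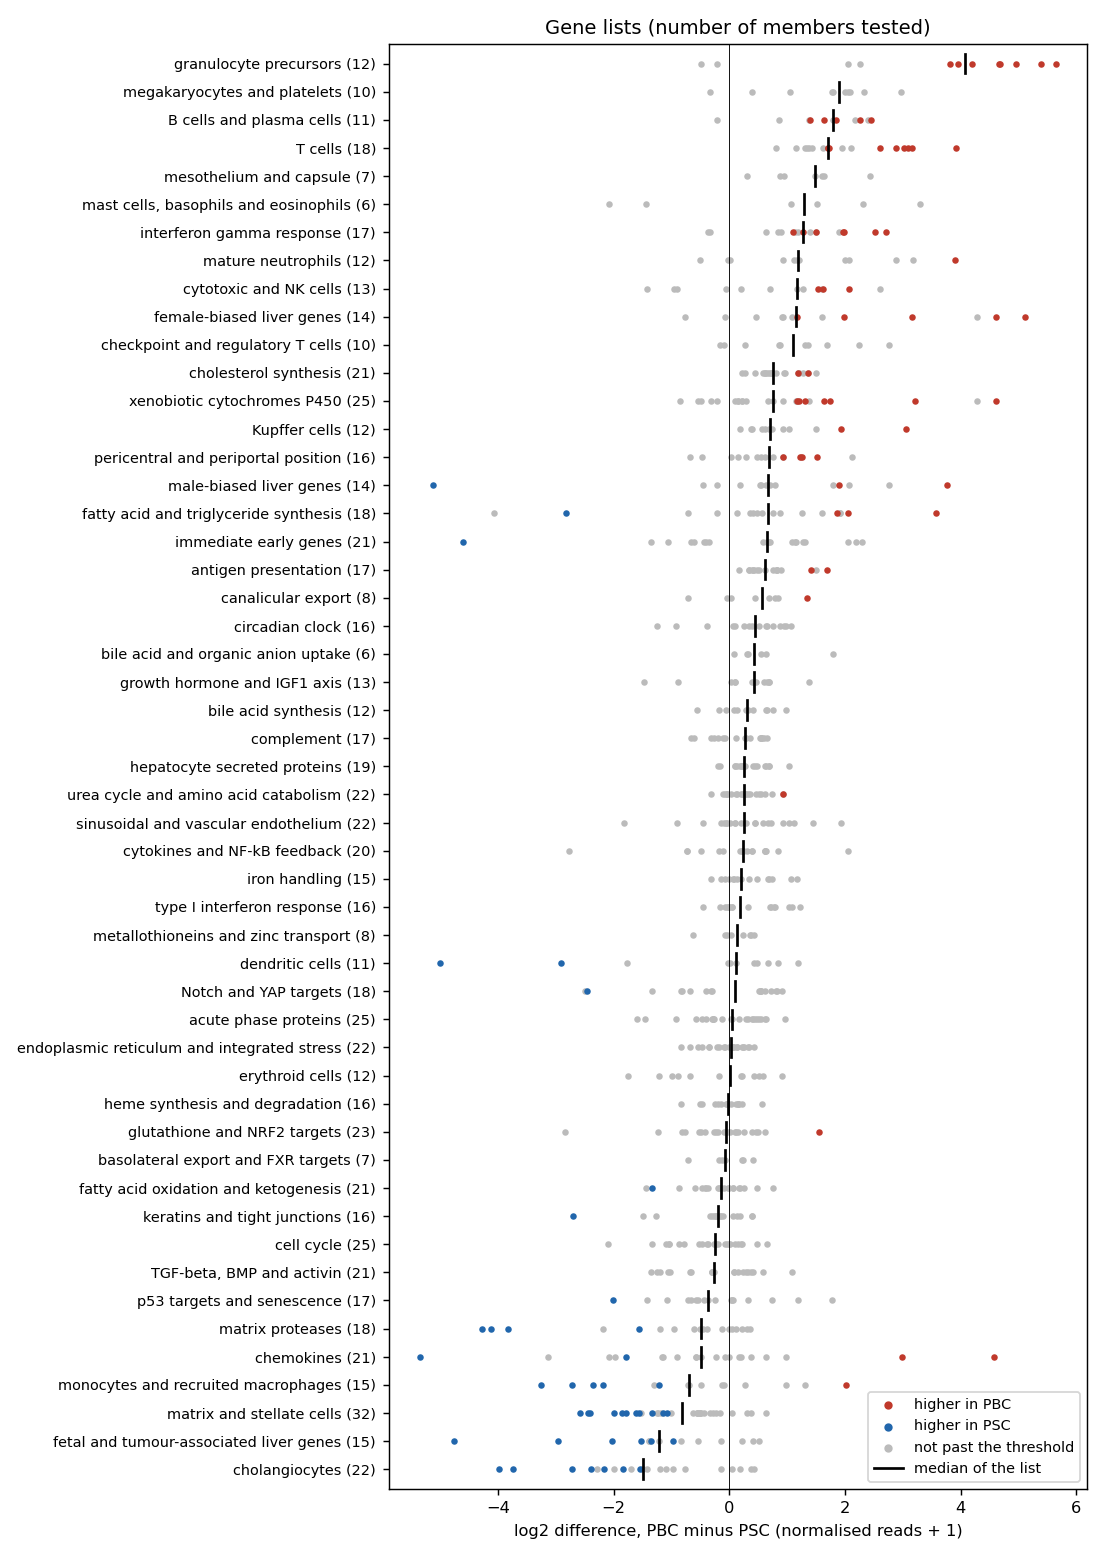
Difference between PBC and PSC for every tested member of 51 gene lists with at least 5 tested members, on the log2 scale, with list medians as bars. Granulocyte precursors lie furthest to the right (median 4.08, 8 of 12 called), and cholangiocytes furthest to the left (median -1.49, 7 of 22 called).

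Several gene lists of the liver's response to injury gave no call between the models by limma. Limma called 0 of the 25 acute phase genes tested (5 had an unadjusted p under 0.05, and edgeR called 0 and DESeq2 3). It called 0 of 12 bile acid synthesis genes (4, 0 and 1 by the same measures) and 0 of 16 heme genes (1, 0 and 1). It called 0 of 25 cell cycle genes (3, 1 and 3) and 0 of 17 complement genes (4, 0 and 0). Saa2, for serum amyloid A, had 64519, 31279 and 100021 in PBC, 260386, 66657 and 240570.0 in PSC and 2556, 1452, 3914 and 1383 untreated. Both models lay far above the untreated livers, and the difference was -1.46 (SE 0.55, adjusted p = 0.178), with a 95% interval of -2.64 to -0.27. Lcn2, for lipocalin 2, differed by -0.92 (SE 0.56, adjusted p = 0.389), with an interval of -2.13 to 0.30. Cyp7a1, the rate-limiting enzyme of bile acid synthesis, differed by 0.76 (SE 0.72, adjusted p = 0.583), with an interval of -0.80 to 2.32. The bile acid uptake transporter gene Slc10a1 had 69888, 34403 and 54732 in PBC, 35776, 32628 and 36161 in PSC and 57367, 50162, 47468 and 73349 untreated, a difference of 0.55 (SE 0.26, adjusted p = 0.281). Alas1, the first enzyme of heme synthesis, differed by -0.51 (SE 0.43, adjusted p = 0.528), and Hmox1, for heme oxygenase, by 0.16 (SE 0.31, adjusted p = 0.799). Among NRF2 targets and export genes, Nqo1 differed by -0.22 (SE 0.28, adjusted p = 0.678), Gstm3 by -0.27 (SE 0.22, adjusted p = 0.528) and Abcc4 by 0.41 (SE 0.54, adjusted p = 0.697). Alb, for albumin, had 8634921, 6219147.5 and 6214521 in PBC and 3412438, 3134830 and 3645538 in PSC, where all livers lay below the untreated ones. Its groups did not overlap, but the difference of 1.03 (SE 0.40, adjusted p = 0.19) did not pass in the main fit. It passed by edgeR (adjusted p = 0.0426), by DESeq2 (0.00101) and by limma with quality weights (0.0499), and in no other alternative fit. Mki67, a gene of dividing cells, had 191, 98.8 and 203 in PBC and 253, 84.1 and 177 in PSC, both above the untreated livers, a difference of 0.01 (SE 0.48, adjusted p = 0.995) with an interval of -1.02 to 1.03. These intervals are wide, and a p above the threshold does not show equal levels.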

How the data were processed

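Liver RNA was sequenced as poly-A stranded paired libraries, per the labels' protocols. The authors aligned reads to mm10 with STAR 2.4.0 and used SAMtools, Picard, FastQC and DESeq2, per the submitters' processing notes. Gene models are those of FAST DB 2018_1, per the file headers. The deposited values are DESeq2-normalised signal per gene model, that is, read numbers divided by a size factor for each library. No source used here gives the counting tool or its strand setting. Values were whole multiples of 1 step per library (tolerance 0.1 read), which gave back whole reads.

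Log2(value + 1) was fitted with limma 3.58.1 (R 4.3.3, intensity trend) over all 10 libraries, so that untreated livers add to the estimate of spread, with the contrast PBC minus PSC, Benjamini-Hochberg adjustment over 17351 models and a threshold of 0.05. EdgeR 4.0.16 and DESeq2 1.42.0 were run on the recovered reads as alternatives, beside other scalings, filters, pseudocounts, quality weights and leaving out each library. On simulated data with 16858 genes for PBC against PSC, 18% of 100 genes changed 2-fold and 83% of 100 changed 4-fold were found, with 8 false calls. The changed genes were drawn only from those with a mean well above the filter value of 10, so these shares do not cover genes near it. Depth limits low genes: 1 read was worth 0.938 to 2.55 normalised reads.

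Named genes were fixed genes, the 10 largest differences in each direction among calls that held in every left-out fit and in edgeR, up to 4 such members per list, and calls against a list's direction. Members and lists were chosen with earlier results of these data known. Some items are not reported here.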

Additional observations from a re-analysis of the deposited data

Results flagged for a closer look

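In 7 of the 77 named genes, 1 of the 4 untreated livers stood apart from the other 3 by Dixon's test at 95%, which chance gives in about 1 in 20 groups. Mpo had 5.55 normalised reads in untreated liver 4 and 0 in the other 3, and Ltf 5.18 in untreated liver 1 and 0 in the other 3. Sprr1a had 2.59 in untreated liver 1 and 0 in the other 3. These 3 values are each a few reads and lie below every PBC and PSC liver for the same gene. Abcc4, an export pump gene, was at 526 in untreated liver 4 against 135 to 158 in the others. Mki67 was lowest in untreated liver 4, at 15.3 against 33.4 to 35.8. Cib3 was highest in untreated liver 3, at 1911 against 329 to 530.4, and this liver lay above all PBC livers. Tgtp1 was highest in untreated liver 1, at 2622 against 848 to 1104, close to the PSC livers. Untreated liver 4 was also low in some summed lists, picked after their values were seen and not tested. Its sum was 19395 against 79241 to 93581 for immediate early genes and 498 against 3159 to 6923 for mature neutrophils. Other lists did not show this, such as Kupffer cells (78800 against 51055 to 82702). All 4 untreated livers enter the estimate of spread and the positions given above.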

How the results depend on the processing

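None of the 418 called models had the opposite sign in an alternative fit that tested it. In all 418 the PBC and PSC livers did not overlap, so leaving out a liver or changing the pseudocount could not reverse a sign. DESeq2 called 582 higher in PBC and 631 in PSC, quality weights 769 and 818, and a pseudocount of 8 called 272 and 331. Equal totals gave 133 and 247. Of the 418, edgeR also called 399, DESeq2 414 and equal totals 332. With 1 library left out, the models higher in PBC numbered 59 to 261 and those higher in PSC 39 to 311. By the sum of both directions, the lowest counts came without PSC 14 (59 and 39), PSC 13 (71 and 62), PSC 11 (104 and 94) and PBC 7 (97 and 152), and the highest without untreated liver 3 (261 and 311). Of the 418, 98 were called without PSC 14. Models under 10 in every PBC liver are untested there, and the rest of the cause was not tested. For the 60 named genes that were called, 1158 of 1199 alternative fits kept the call and 41 lost it. For the 17 not called, 19 of 340 gained one, in S100a8, Cd74, Saa2, Slc10a1, Krt19, Sox9 and Alb. Many of the 60 were picked because their calls held in every left-out fit and in edgeR. Their share of kept calls therefore does not measure how stable the 418 calls are. The median over all models was 0.02 on the deposited and TMM scales and -0.07 with equal totals. No paired analysis was possible because the groups share no replicate numbers. Adjuvant, glycolipid and antigen, or diet and its timing, cannot be told apart by this design, and with 3 livers a model many 2-fold differences go uncalled.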

Other observations

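Antigen receptor loci, which the deposited table holds as long unnamed models, were also called higher in PBC and were picked after their values were seen. The model over the immunoglobulin lambda locus (chr16:19061628-19260844, mm10) differed by 2.04 (SE 0.31, adjusted p = 0.0045) and that over the T cell receptor alpha and delta locus (chr14:52638515-54224202) by 1.90 (SE 0.26, adjusted p = 0.00235), both by limma and called in every left-out fit. The models over the immunoglobulin heavy chain locus (chr12:112896981-116000321) and the T cell receptor beta locus (chr6:40891227-41548356) differed by 1.89 (adjusted p = 0.0193) and 1.39 (adjusted p = 0.0456), and lost their call in some left-out fits. Such models span many genes, and reads of any of these enter their value.

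Genes of megakaryocytes and platelets had a median difference of 1.90 towards PBC over 10 tested members, with 9 positive. Limma called 0 of them, 5 had an unadjusted p under 0.05, edgeR called 1 and DESeq2 3. All 7 tested genes of the mesothelium and capsule had positive differences, with a median of 1.48. Limma and edgeR called 0 of these, 3 had an unadjusted p under 0.05, and DESeq2 called 2.

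A total of 14 models had 0 reads in all PBC livers and at least 10 in all PSC livers, of which 9 were called, and 3 had the reverse pattern, all called. One of them, picked after its values were seen, is an unnamed model at chr5:105862522-105863781 that overlaps the pseudogene Gm10359. It had 599 to 2085 normalised reads in PSC and 698 to 2245 in the untreated livers, against 0 in PBC 7, 8 and 9. GSMG0068265 was at least 696-fold higher in PSC than the level of 3 reads over the PBC livers, or 348-fold if both mates of a pair were counted and 3 pairs are the floor. The untreated livers overlapped PSC, the labels give no origin of the mice beyond the strain, and origin and treatment cannot be told apart for this model. Gml had 0 in PBC and 84.4, 29.1 and 123 in PSC, at least 38.2-fold higher against 3 reads and 19.1-fold against 3 pairs. Chil4, for a chitinase-like protein, had 18.8, 14.6 and 383 in PSC, so that PSC 14 lay far above the other PSC livers, and 0 in PBC.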
